A study of Mus musculus with 10 samples.

Results

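The genes studied mark the bile duct epithelium and the liver progenitor compartment and were followed in whole liver of WT and Thrb hep-/- mice. The 8 genes were taken by name, and all were found among the 55401 genes of the count tables: Krt19, Krt7, Epcam, Sox9, Spp1, Cldn7, Cftr and Cd24a. The data are RNA-seq read counts from the livers of 5 WT littermates and 5 mice labelled as liver-specific Thrb knockouts, on a C57Bl6/J background, with 1 library per mouse. In the knockout, floxed alleles of the gene for thyroid hormone receptor beta are recombined by Cre under the Afp promoter. All mice received standard chow and no treatment; their age, their sex and whether the WT mice carry the floxed alleles are not given in the sources used here. None of the 8 markers passed the tests for a difference between the genotypes.

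The liver holds 2 epithelial cell types. Hepatocytes fill the lobule, and cholangiocytes line the bile ducts in the portal tracts, where they modify bile by secreting chloride, bicarbonate and water. Both arise from fetal hepatoblasts, which express Afp, and the ductal fate is set by Notch signals and by the transcription factor SOX9, with Hippo/YAP activity as a further input. In chronic injury, cells with ductal markers spread out from the portal tracts, and hepatocytes can themselves switch on some of these genes. Because Afp is active in hepatoblasts, a Cre under its promoter may act in the ancestors of cholangiocytes as well as of hepatocytes, and the count tables cannot separate the cell types. In bulk tissue, fewer cells of a type and less RNA per cell cannot be told apart.

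Libraries were of like size, with 26477195 to 28530198 counts in WT and 27779196 to 28590704 in Thrb hep-/- mice, so that 3 counts corresponded to 0.105 to 0.113 CPM, the count scaled to the library total. Values below are CPM after TMM scaling, called normalized CPM. The targeted gene, Thrb, was at 32.5 to 34.2 normalized CPM in WT and 24.9 to 28.8 in Thrb hep-/- mice, a log2 fold change of -0.32 (standard error, SE, 0.067; adjusted p = 0.036, edgeR). All 8 hepatocyte markers checked were measured in every library, with Alb, the gene for serum albumin, between 60300 and 96600 normalized CPM, and 0 of them passed the test for a difference (1 at an unadjusted p below 0.05, edgeR). Neutrophil genes stood apart in 2 WT libraries: the 7 genes of that list summed to 23.4 normalized CPM in WT mouse 2 and 16.6 in WT mouse 3, against 1.76 to 4.58 over the other WT mice and 0.364 to 2.36 in Thrb hep-/- mice.

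Thyroid hormone receptors bind DNA at the hexamer AGGTCA, and the windows around the start sites of the markers were searched for it on both strands (AGGTCA or TGACCT). The RefSeq promoter table (GRCm38.p6) held 7 windows of 300 bases for 5 of the markers: Spp1 and Cldn7 with 2 each, and Krt7, Epcam and Cftr with 1 each. Krt19, Sox9 and Cd24a had no entry. The hexamer occurred in 3 of these 7 windows and in 16.3% of all 32851 windows of the table. The sequences below run from 200 bases before to 30 bases after the start, on the plus strand, with the hexamer in capitals. Spp1 is shown because it was the most abundant of the markers, and Cldn7 and Krt7 because their windows hold the hexamer.
Spp1, chr5:104434911-104435140: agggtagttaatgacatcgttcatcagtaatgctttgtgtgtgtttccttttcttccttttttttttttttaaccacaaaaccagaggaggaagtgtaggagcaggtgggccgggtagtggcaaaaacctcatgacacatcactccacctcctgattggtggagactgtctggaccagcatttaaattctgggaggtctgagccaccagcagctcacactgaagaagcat
Cldn7 upstream start, chr11:69964579-69964808: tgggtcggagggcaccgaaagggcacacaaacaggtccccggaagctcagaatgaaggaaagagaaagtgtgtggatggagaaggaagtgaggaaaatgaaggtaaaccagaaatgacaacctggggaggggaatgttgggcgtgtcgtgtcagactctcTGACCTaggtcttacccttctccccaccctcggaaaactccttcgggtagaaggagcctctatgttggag
Cldn7 downstream start, chr11:69965221-69965450: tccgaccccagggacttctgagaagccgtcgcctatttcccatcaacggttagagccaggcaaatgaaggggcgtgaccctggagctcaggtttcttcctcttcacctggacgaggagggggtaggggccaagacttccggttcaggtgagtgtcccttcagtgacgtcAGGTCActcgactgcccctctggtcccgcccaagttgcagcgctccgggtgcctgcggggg
Krt7, chr15:101412203-101412432: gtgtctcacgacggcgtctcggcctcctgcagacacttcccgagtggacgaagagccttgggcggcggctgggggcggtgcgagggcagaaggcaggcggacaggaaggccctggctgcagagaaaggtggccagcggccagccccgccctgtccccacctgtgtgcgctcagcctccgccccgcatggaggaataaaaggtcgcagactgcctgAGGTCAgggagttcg
Relative to the start, the hexamer began at -40 and -31 in the Cldn7 windows and at 15 in the Krt7 window. The printed Spp1 window holds no match, and neither does the second Spp1 window nor those of Epcam and Cftr. A match is a description of the letters and not a site of receptor binding. Hexamers of other regulators of the ductal fate were searched in the same way. TGGGAA or TTCCCA, bound by the Notch effector RBPJ, was in 1 of the 7 windows and 25.6% of all windows, and GGAATG or CATTCC, bound by the TEAD partners of YAP, was in 1 of 7 and 14.7%.

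The markers differed widely in level when set on one scale per length. Per kilobase of merged exons, Spp1 averaged 14.3 ± 4.0 normalized CPM (SD, n = 10 mice), Sox9 1.0 ± 0.326, Cd24a 0.965 ± 0.329 and Epcam 0.523 ± 0.177. Krt19 averaged 0.383 ± 0.118, Cldn7 0.206 ± 0.0888, Krt7 0.110 ± 0.0214 and Cftr 0.0121 ± 0.00586. The secreted protein thus led the order, the transcription factor and the surface antigens followed, and the duct keratins, the claudin and the chloride channel came last. Spp1 was above Sox9 in 10 of 10 mice, by 14.5-fold on the geometric mean of the per-kilobase levels (exact two-sided sign-flip test, p = 0.002, the smallest 10 mice allow; adjusted p = 0.0034 over 7 neighbour pairs). Cd24a was above Epcam in 10 of 10 mice by 1.82-fold, Krt19 above Cldn7 in 10 of 10 by 1.87-fold, and Krt7 above Cftr in 10 of 10 by 8.17-fold, each with the same adjusted p in the exact test. Cldn7 was above Krt7 in 9 of 10 mice by 1.82-fold (adjusted p = 0.0082, exact sign-flip test). The order of this pair rests on the lengths, 1948 bases of merged exons for Cldn7 and 7049 for Krt7. Before division by length, Krt7 was the higher, with means of 0.771 normalized CPM in WT and 0.775 in Thrb hep-/- mice, against 0.438 and 0.366 for Cldn7. Merged exons join all transcripts of a gene, and the sign-flip test does not cover the choice of length. The other 2 neighbour pairs did not differ beyond their spread at 0.05: Sox9 was above Cd24a in 5 of 10 mice (1.04-fold, adjusted p = 0.80, exact sign-flip test), and Epcam above Krt19 in 7 of 10 (1.35-fold, adjusted p = 0.05, exact sign-flip test).

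**Figure D1:**
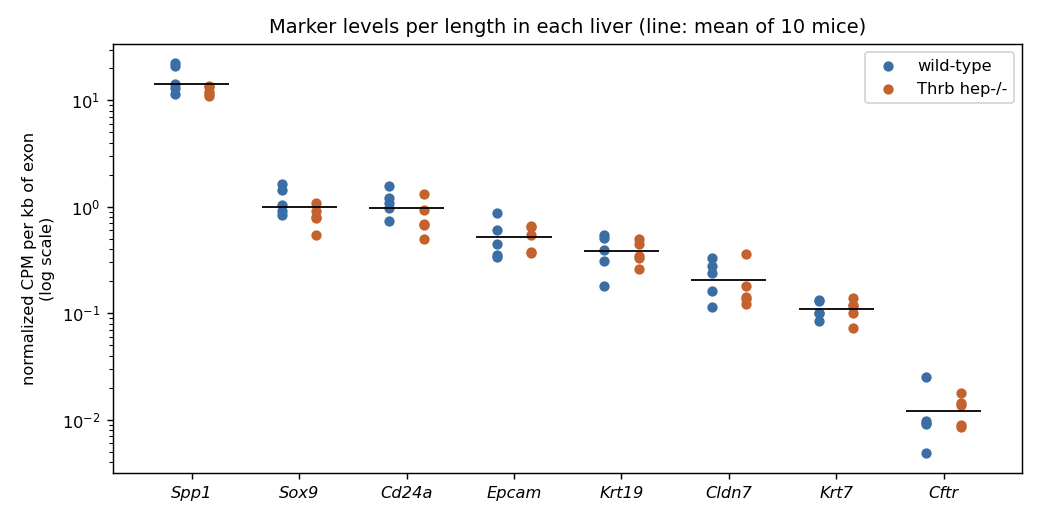
Level of each marker per kilobase of merged exons, in normalized CPM on a log axis, with 1 point for each of the 5 WT and 5 Thrb hep-/- mice. Spp1 lies between 10.9 and 22.2 in all mice and Cftr between 0.00482 and 0.0252, and the points of Sox9 and Cd24a interleave.

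These low levels set the precision. Raw counts per library were 503 to 992 for Spp1, 63 to 174 for Sox9, 37 to 115 for Cd24a and 20 to 51 for Epcam. They were 15 to 28 for Krt7, 9 to 28 for Krt19, 6 to 21 for Cldn7 and 1 to 5 for Cftr. The study's filter of at least 1 CPM in at least 5 libraries kept 12234 genes, among them Epcam, Sox9, Spp1 and Cd24a. A lower filter of 0.1 CPM in 5 libraries kept 17209 genes and 7 of the 8 markers, all but Cftr. Of the 4 markers tested under the study's filter, 0 passed an adjusted p of 0.15 in edgeR's quasi-likelihood test, against 4.08% of all tested genes, of which 1.51% were higher and 2.57% lower in Thrb hep-/- mice. Sox9 and Spp1 had an unadjusted p below 0.05, as did 13.6% of all tested genes. DESeq2 and limma-voom also called 0 markers. Under the lower filter, 0 of 7 markers were called against 3.61% of all tested genes, of which 1.37% were higher and 2.24% lower. The genotypes overlapped for all 8 markers, while they were apart for 3.64% of the genes under the study's filter and 3.31% under the lower one. The median log2 fold change of the 4 tested markers was -0.43, beside 0.00054 over all tested genes, with Epcam the one near 0.

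**Figure D2:**
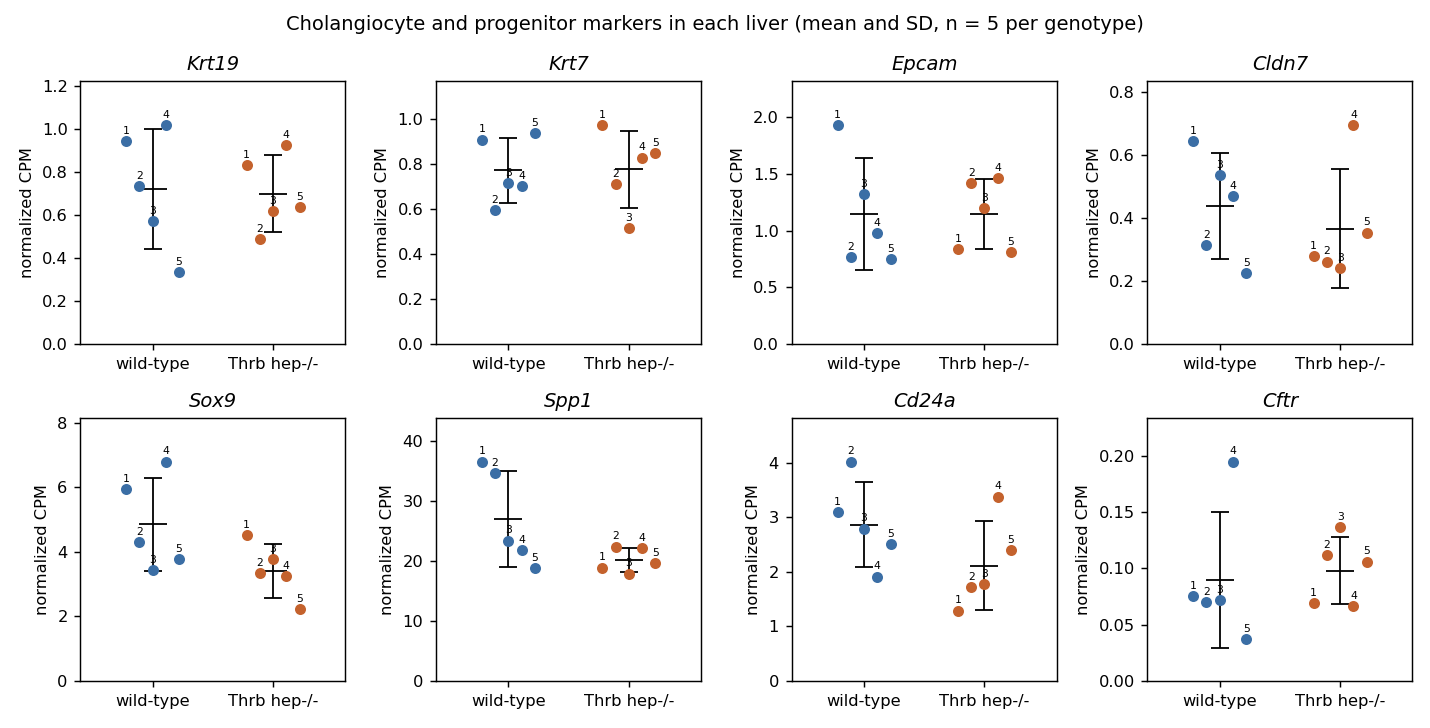
Normalized CPM of each of the 8 markers in the 5 WT and 5 Thrb hep-/- mice, with points numbered by mouse, and the mean and SD of each group. The genotypes overlap in all 8 panels, and the WT points of Spp1 spread from 18.8 to 36.6 while its Thrb hep-/- points lie between 17.9 and 22.4.

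Krt19 (ENSMUSG00000020911, chromosome 11, 100140810 to 100148665, minus strand, GRCm38) encodes a type I keratin of the duct cytoskeleton that hepatocytes normally lack. Its normalized CPM were 0.946, 0.734, 0.572, 1.02 and 0.337 in the WT group, given in the order of the mouse numbers here and below, and 0.834, 0.487, 0.618, 0.927 and 0.637 in the Thrb hep-/- group. The Thrb hep-/- values all lay inside the WT range. The means were 0.721 ± 0.277 and 0.700 ± 0.177 (SD, n = 5 each; p = 0.90, exact two-sided permutation test), and the fit under the lower filter gave a log2 fold change of -0.035 with a 95% interval from -0.69 to 0.62 (adjusted p = 0.98, edgeR). Krt7 (ENSMUSG00000023039, chromosome 15, 101411043 to 101430313, plus strand), a type II keratin of the same filaments, measured 0.908, 0.594, 0.715, 0.703 and 0.936 in WT and 0.973, 0.712, 0.515, 0.828 and 0.849 in Thrb hep-/- mice. The lowest and the highest value were both in Thrb hep-/- mice. The means of Krt7 were 0.771 ± 0.146 and 0.775 ± 0.173 (SD, n = 5 each; exact permutation p = 0.98), with a log2 fold change of 0.0086 and a 95% interval from -0.50 to 0.51 under the lower filter (adjusted p = 0.99, edgeR). The interval of Krt19 includes a change of the size fitted for Cdh1 below, and that of Krt7 does not. Krt7 had a coefficient of variation of 18.9% in WT and 22.2% in Thrb hep-/- mice, close to the 21.9% and 21.2% that counting alone gives at its depth. A small part of its exons, 77 of 7049 bases, is shared with Gm671 on the other strand.

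Keratins of simple epithelia are also made by mesothelial cells of the liver capsule, and Krt8 and Krt18 by hepatocytes. The 6 mesothelial genes summed to 5.08 to 8.85 normalized CPM in WT and 5.96 to 10.7 in Thrb hep-/- mice, and 0 of the 3 that passed the filter were called. Krt8 had a log2 fold change of -0.26 (adjusted p = 0.19, edgeR) and Krt18 of -0.18 (adjusted p = 0.45, edgeR). Krt8 was lower in each Thrb hep-/- mouse than in each WT mouse (113 to 133 against 134 to 168 normalized CPM; exact permutation p = 0.0079), and it was called by DESeq2, by limma-voom, and in edgeR without WT mouse 3. Krt18 was called in edgeR without Thrb hep-/- mouse 1.

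Epcam (ENSMUSG00000045394, chromosome 17, 87635979 to 87651129, plus strand) encodes an adhesion protein of the duct and progenitor cell surface. It measured 1.93, 0.769, 1.32, 0.977 and 0.748 normalized CPM in WT and 0.834, 1.42, 1.2, 1.46 and 0.813 in Thrb hep-/- mice. WT mouse 1 was the highest and WT mouse 5 the lowest of all 10. The means were 1.15 ± 0.494 and 1.15 ± 0.310 (SD, n = 5 each; exact permutation p = 0.99), and the log2 fold change was -0.0028 (SE 0.29; adjusted p = 1.0, edgeR; 95% interval -0.64 to 0.63). Its sign is set by single mice: without WT mouse 1 it was 0.27. Cldn7 (ENSMUSG00000018569, chromosome 11, 69964779 to 69967885, plus strand) encodes a tight junction protein that associates with EPCAM in epithelial membranes. It measured 0.643, 0.315, 0.536, 0.469 and 0.225 normalized CPM in WT and 0.278, 0.262, 0.240, 0.695 and 0.354 in Thrb hep-/- mice. Thrb hep-/- mice 1, 2, 3 and 5 were below the WT median, and mouse 4 of that group was the highest of all 10. The means of Cldn7 were 0.438 ± 0.169 and 0.366 ± 0.189 (SD, n = 5 each; exact permutation p = 0.54). Under the lower filter its log2 fold change was -0.24 (SE 0.38, adjusted p = 0.87, edgeR; 95% interval -1.05 to 0.57). It was -0.61 without Thrb hep-/- mouse 4 and -0.058 without WT mouse 1.

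Sox9 (ENSMUSG00000000567, chromosome 11, 112782224 to 112787760, plus strand) encodes the transcription factor that marks bile ducts and a few periportal hepatocytes. It measured 5.94, 4.3, 3.43, 6.80 and 3.78 normalized CPM in WT and 4.52, 3.34, 3.77, 3.24 and 2.23 in Thrb hep-/- mice. The 2 highest values were in WT mice 4 and 1 and the lowest in Thrb hep-/- mouse 5, but WT mouse 3 lay below Thrb hep-/- mice 1 and 3. The mean was 4.85 ± 1.45 in WT and 3.42 ± 0.834 in Thrb hep-/- mice (SD, n = 5 each; exact permutation p = 0.11). The log2 fold change was -0.50 (SE 0.22, 95% interval -0.99 to -0.017), with an unadjusted p of 0.044 and an adjusted p of 0.35 in edgeR. Its coefficient of variation was 30% in WT and 24.4% in Thrb hep-/- mice, above the 8.76% and 10.1% of counting alone; the mice differed among themselves by more than counting error gives.

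Spp1 (ENSMUSG00000029304, chromosome 5, 104435118 to 104441050, plus strand) encodes osteopontin, a secreted phosphoprotein made by cholangiocytes and by some macrophages. It measured 36.6, 34.7, 23.4, 21.8 and 18.8 normalized CPM in WT and 18.9, 22.4, 17.9, 22.1 and 19.7 in Thrb hep-/- mice. WT mice 1 and 2 stood above all others, WT mouse 3 just above the Thrb hep-/- mice, and WT mice 4 and 5 within their range. The mean was 27.1 ± 8.04 in WT and 20.2 ± 1.98 in Thrb hep-/- mice (SD, n = 5 each; exact permutation p = 0.11). The log2 fold change was -0.42 (SE 0.17, 95% interval -0.80 to -0.040), with an unadjusted p of 0.033 and an adjusted p of 0.32 in edgeR. The coefficient of variation was 29.7% in WT and 9.80% in Thrb hep-/- mice, against 3.69% and 4.16% from counting alone. Of the exon bases of Spp1, 309 of 1648 (18.8%) are shared with Gm42793 on the same strand, where reads are not counted for either gene, and its level per kilobase of unshared exon was 17.7 normalized CPM. The 8 macrophage genes summed to 116 to 341 normalized CPM in WT and 135 to 243 in Thrb hep-/- mice. WT mouse 1, with the highest Spp1, had the lowest macrophage sum, but that sum is led by Cd5l, Clec4f and Lyz2. Trem2, under the study's filter, was at 0.908, 1.01, 0.679, 0.43 and 0.225 normalized CPM in WT and 0.298 to 0.446 in Thrb hep-/- mice. Gpnmb, also under it, was at 0.0391 to 0.315 in WT and 0.112 to 0.629 in Thrb hep-/- mice. In edgeR or DESeq2, 0 of the 6 macrophage genes that passed the filter were called, with 2 at an unadjusted p below 0.05 in edgeR. Without WT mouse 1, edgeR called 3 of the 6, Adgre1, Cd5l and Cd68. The median log2 fold change of the 6 over all mice was -0.51, and the part of macrophages in the Spp1 values was not tested.

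Cd24a (ENSMUSG00000047139, chromosome 10, 43578284 to 43584265, plus strand) encodes a lipid-anchored surface antigen of progenitor and duct cells that is also carried by neutrophils, B cells and red cell precursors. It measured 3.10, 4.02, 2.79, 1.91 and 2.51 normalized CPM in WT and 1.29, 1.72, 1.78, 3.38 and 2.40 in Thrb hep-/- mice. The highest value was in WT mouse 2 and the second highest in Thrb hep-/- mouse 4, with the other 4 Thrb hep-/- mice below the WT median. The mean was 2.87 ± 0.779 in WT and 2.12 ± 0.810 in Thrb hep-/- mice (SD, n = 5 each; exact permutation p = 0.17). The log2 fold change was -0.44 (SE 0.26, adjusted p = 0.51, edgeR; 95% interval -1.01 to 0.13). WT mouse 2 also had the highest neutrophil sum, 23.4 normalized CPM, whereas Thrb hep-/- mouse 4 had the lowest, 0.364. Of the neutrophil markers, Ly6g was at 0 in all Thrb hep-/- mice and at most 0.0699 normalized CPM in WT, and Mpo was at most 2.76 in WT and 0.0750 in Thrb hep-/- mice. S100a8, the gene of that list past the filter, had a log2 fold change of -2.67 (adjusted p = 0.13, edgeR), a call that was lost when any of 7 mice was left out. The adjusted p was then 0.15, 0.28 and 0.23 without WT mice 1, 2 and 3, and 0.18, 0.29, 0.25 and 0.24 without Thrb hep-/- mice 2, 3, 4 and 5 (edgeR). The 6 red cell genes summed to 193 to 310 normalized CPM in WT and 149 to 233 in Thrb hep-/- mice, with 0 of the 5 that passed the filter called in edgeR (2 at an unadjusted p below 0.05) and a median log2 fold change of -0.68. That sum is led by Alas2, with means of 118 in WT and 121 in Thrb hep-/- mice (log2 fold change 0.037). The globin genes of the list were fitted at -0.65 to -0.76. Hba-a2, a globin gene of that list, had an adjusted p of 0.24 in edgeR and was called by DESeq2, by the likelihood ratio test, and in edgeR without WT mouse 1 or WT mouse 4. The 5 B cell genes, all under the filter, summed to 1.44 to 4.0 and 3.05 to 3.75. In the gene models, 27 of the 2460 stretches of 75 bases in Cd24a transcripts also occur in Gm6212, and reads of such stretches that map to both are not counted. The part of these cells in the Cd24a values was not tested.

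Cftr (ENSMUSG00000041301, chromosome 6, 18170687 to 18322768, plus strand) encodes the chloride channel of the cholangiocyte apical membrane. It had 1 to 5 counts per library, at or near the 3 counts taken as the floor, and 129 of its 7765 exon bases are shared with Gm15592 on the other strand. The sums over 5 libraries were 12 counts in WT (95% exact Poisson interval 6.20 to 21.0) and 14 in Thrb hep-/- mice (7.65 to 23.5), intervals that cover counting error only. The means did not differ in the exact permutation test (p = 0.81). A difference of modest size could not be detected at this depth, and no fold is given.

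**Figure D3:**
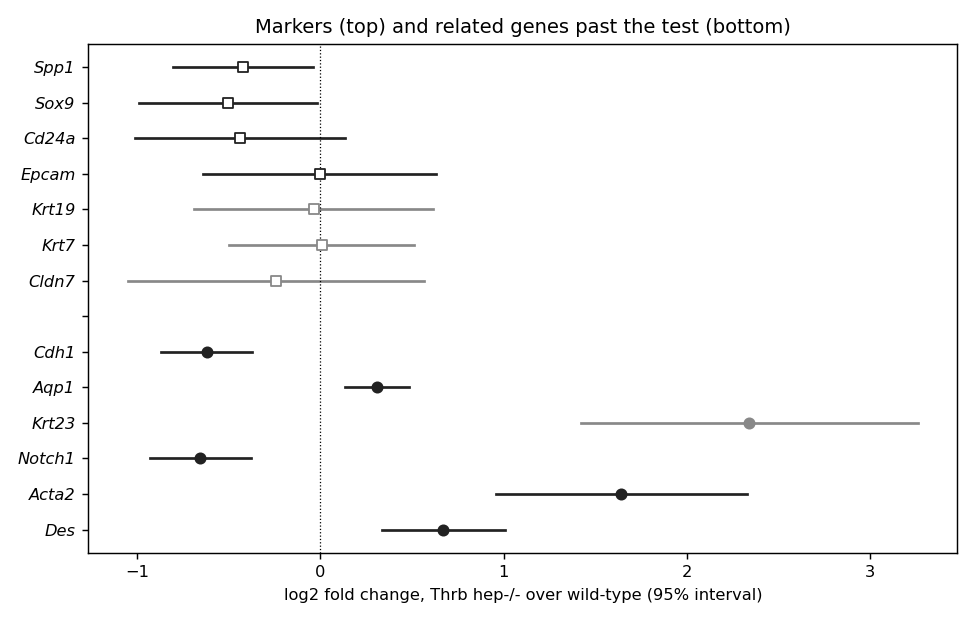
Log2 fold change (Thrb hep-/- over WT) with 95% interval for 7 of the markers, above, and for some genes of related lists past the test, below. Krt23 passed under the lower filter only, and S100a8, which passed under the study's filter, is not drawn. Black marks the study's filter, grey the lower filter, filled circles an adjusted p below 0.15 and open squares values at or above it. All 7 marker intervals are marked with open squares, the leftmost being Sox9 at -0.50, while Krt23 and Acta2 lie furthest right, at 2.34 and 1.64.

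Other genes known from bile duct epithelium gave 2 calls in opposite directions. Of 26 listed, 16 passed the study's filter, and 1 was higher and 1 lower in Thrb hep-/- mice, with a median log2 fold change of -0.11. Over all tested genes, 1.51% were called higher and 2.57% lower. In edgeR, 4 of the 16 had an unadjusted p below 0.05, as did 13.6% of all tested genes. Cdh1, the gene for E-cadherin (chromosome 8, 106603351 to 106670246), which joins epithelial cells and is also made by periportal hepatocytes, was at 44.7, 59.4, 68.7, 57.1 and 49.8 normalized CPM in WT and 33.2, 31.8, 36.7, 39.1 and 41.2 in Thrb hep-/- mice. Each Thrb hep-/- mouse was below each WT mouse, and the log2 fold change was -0.62 (SE 0.12; adjusted p = 0.021, edgeR). Aqp1, the gene for a water channel of cholangiocytes and of endothelium, was at 84.3 to 99.5 normalized CPM in WT and 101 to 128 in Thrb hep-/- mice. The fitted log2 difference of Aqp1 was 0.31 (SE 0.080, adjusted p = 0.083, edgeR), and the call was lost without WT mouse 2 (adjusted p = 0.16), WT mouse 3 (0.18), WT mouse 5 (0.19), Thrb hep-/- mouse 3 (0.22) or Thrb hep-/- mouse 5 (0.15). Among the genes of this list that did not pass, Cldn3, another claudin, had a log2 fold change of 0.033 (adjusted p = 0.91, edgeR), and Slc10a2, the bile acid transporter of cholangiocytes, of -1.10 (adjusted p = 0.18, edgeR). Before division by length, their WT means were 89.1 and 25.9 normalized CPM, against 0.721 for Krt19. Which cells made these transcripts was not tested. The call of Slc10a2 turned on the tool: DESeq2, limma-voom, the likelihood ratio test and edgeR without robust settings called it lower, as did edgeR without WT mouse 4.

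Krt23, the gene for a type I keratin (chromosome 11, 99477974 to 99493137), was higher in Thrb hep-/- mice, and is named here after its values were seen. It had 5, 1, 7, 5 and 6 counts in the WT group and 16, 38, 21, 16 and 39 in the Thrb hep-/- group. Each Thrb hep-/- library had more than each WT library, and the gene stayed under the study's filter. Its mean was 0.179 ± 0.0841 normalized CPM in WT and 0.922 ± 0.445 in Thrb hep-/- mice (SD, n = 5 each; exact permutation p = 0.0079, the smallest 5 against 5 allows), and the lower filter gave a log2 fold change of 2.34 (SE 0.43, 95% interval 1.42 to 3.26, adjusted p = 0.016, edgeR).

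Genes of fetal liver and of the ductular reaction gave 0 calls among 7 of 16 that passed the filter, 0 of them with an unadjusted p below 0.05 in edgeR, and a median log2 fold change of -0.16. DESeq2 also called 0, and edgeR without WT mouse 1 called Cd44. Afp, whose promoter drives the Cre, was at 1.61 to 3.26 normalized CPM in WT and 1.73 to 2.67 in Thrb hep-/- mice (adjusted p = 0.77, edgeR). Under the lower filter 1 of 11 was called: Vtcn1, an immune checkpoint ligand, with a mean of 0.559 normalized CPM in WT and 0.215 in Thrb hep-/- mice and a log2 fold change of -1.36 (adjusted p = 0.10, edgeR). The share called over all genes tested under that filter was 3.61%.

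Of the Notch pathway, 14 of 18 listed genes passed the filter, with 0 higher and 1 lower in edgeR (2 at an unadjusted p below 0.05) and a median log2 fold change of 0.026. The share called over all tested genes was 4.08%. Notch4, an endothelial receptor whose fitted log2 fold change was 0.47 (adjusted p = 0.19, edgeR), was called higher by DESeq2, by the likelihood ratio test, and in edgeR without Thrb hep-/- mouse 4. Notch1, a receptor, was at 10.3, 9.96, 14.7, 12.3 and 11.5 normalized CPM in WT and 7.16, 6.56, 8.92, 6.82 and 7.92 in Thrb hep-/- mice. The groups did not overlap, and the log2 fold change was -0.65 (SE 0.13, adjusted p = 0.025, edgeR); 9.76% of its exon bases are shared with genes on the other strand, and the counting did not use strand. Jag1, the ligand presented by portal mesenchyme, had a log2 fold change of 0.057 (adjusted p = 0.91, edgeR). Of the target genes, Hes1 was fitted at -0.096 (adjusted p = 0.93, edgeR) and Heyl at 0.59 (adjusted p = 0.38, edgeR). Under the lower filter, Hey1 was fitted at 0.53 (adjusted p = 0.35, edgeR) and Nrarp at -0.59 (adjusted p = 0.79, edgeR). The genotypes were apart for Hey1, as for 3.31% of genes under that filter. Of the Hippo pathway, 17 of 20 genes passed the filter and 0 were called, with 2 at an unadjusted p below 0.05 in edgeR and a median of -0.043; Ajuba was called by DESeq2, by the likelihood ratio test, and in edgeR without WT mouse 1 or Thrb hep-/- mouse 4. Yap1, the coactivator itself, had a log2 fold change of 0.054 (adjusted p = 0.85, edgeR).

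Genes of the mesenchyme around the ducts gave 2 calls, both higher, among 8 of 9 that passed the filter, with a median log2 fold change of 0.36. Over all tested genes, 1.51% were called higher and 2.57% lower. Acta2, the gene for smooth muscle actin in vessel walls and activated stellate cells, was at 1.55, 2.27, 1.04, 2.46 and 0.674 normalized CPM in WT and 4.90, 4.91, 3.22, 7.02 and 4.95 in Thrb hep-/- mice. The groups did not overlap, and the log2 fold change was 1.64 (SE 0.32, adjusted p = 0.026, edgeR). Des, the gene for the muscle filament desmin, was at 1.35 to 2.11 normalized CPM in WT and 2.81 to 3.29 in Thrb hep-/- mice (log2 fold change 0.67, SE 0.15, adjusted p = 0.057, edgeR). The whole list summed to 63.1 to 120 normalized CPM in WT and 103 to 123 in Thrb hep-/- mice, so that the sums overlapped. The 7 genes of exocrine pancreas, a neighbouring tissue, were all under the study's filter and summed to 0.703 to 2.27 normalized CPM in WT and 0.166 to 1.13 in Thrb hep-/- mice. In WT mice 1, 4 and 5 this sum was Cela2a alone, and no other gene of the list exceeded 0.28 normalized CPM in any library.

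**Figure D4:**
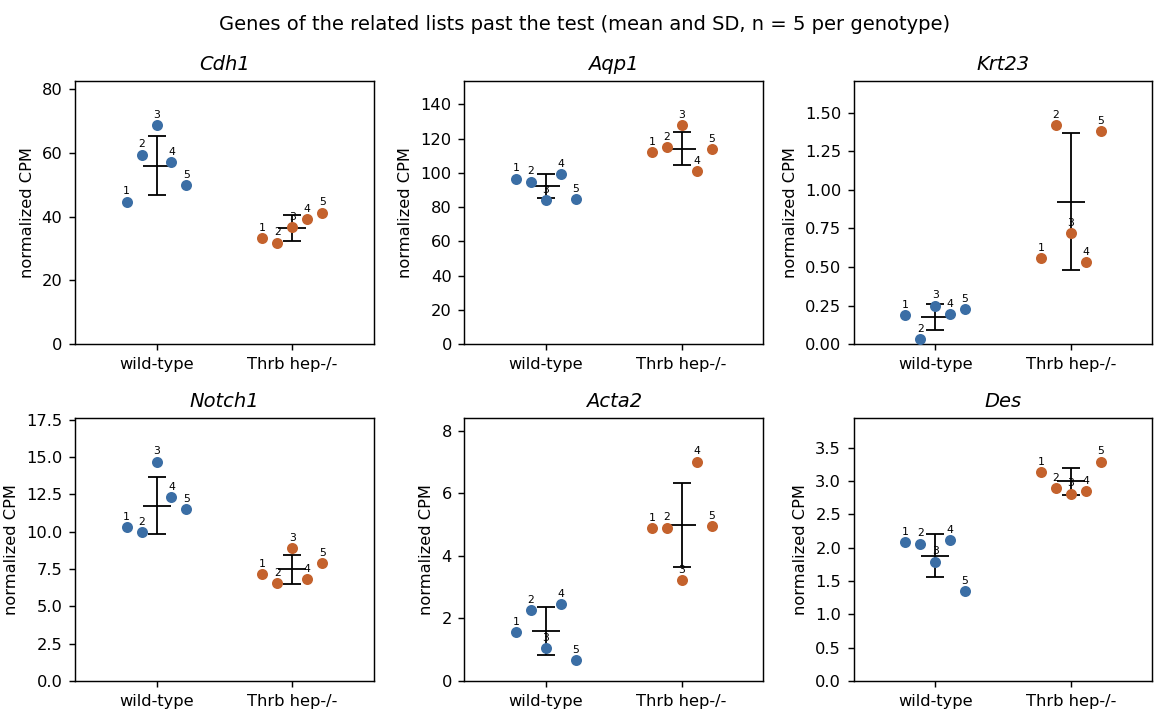
Normalized CPM in each mouse for 6 genes of the related lists, with points numbered by mouse and the mean and SD of each group. Cdh1, Aqp1, Notch1, Acta2 and Des passed the test under the study's filter, and Krt23 under the lower filter only. S100a8, which also passed under the study's filter, is not drawn. For Cdh1, the WT mice lie between 44.7 and 68.7 and the Thrb hep-/- mice between 31.8 and 41.2.

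Within genotypes, the markers were compared for whether they were high in the same mice, over 10 mice and on log2 normalized CPM with the genotype means removed. Of the 21 pairs among the 7 markers with a mean of at least 10 counts, 16 had a positive Pearson r and the median r was 0.215. No pair passed an adjusted p of 0.05 by Pearson or Spearman, and 1 pair had an unadjusted permutation p below it by each measure. By Pearson this was Krt19 and Cldn7, with r = 0.68 (permutation p = 0.041, adjusted p = 0.43) and rho = 0.636 (permutation p = 0.086); r was 0.57 without the 2 mice farthest from the median of Krt19. By Spearman it was Epcam and Cldn7, with rho = 0.697 (permutation p = 0.048, adjusted p = 0.52) and r = 0.65 (permutation p = 0.058, adjusted p = 0.43); r was 0.444 without the 2 mice farthest from the median of Epcam. The lowest r, -0.50, was between Sox9 and Cd24a (permutation p = 0.16, adjusted p = 0.69; rho = -0.612, permutation p = 0.074), and was -0.32 without the 2 mice farthest from the median of Sox9.

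**Figure D5:**
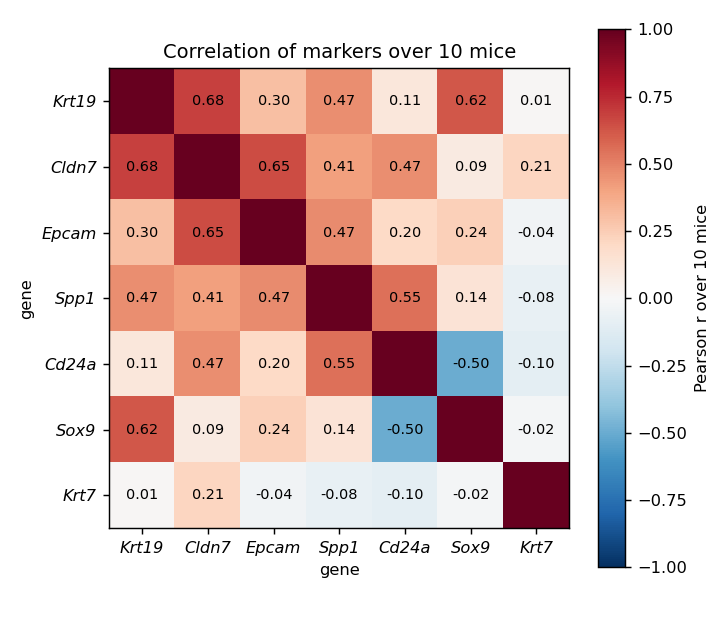
Pearson r between 7 of the markers over 10 mice, from log2 normalized CPM with the genotype means removed, with the r of each pair written in its cell and coloured from blue (negative) to red (positive). Values run from -0.50 for Sox9 and Cd24a to 0.68 for Krt19 and Cldn7, and none passed the adjusted test.

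Among the 12233 other genes that passed the study's filter, the most alike in pattern over the 10 mice were sought for the 4 markers that passed it, and the genes searched did not hold Krt19, Krt7, Cldn7 and Cftr. By Pearson r of the genotype-centred values, given as a description, Spp1 was most like Adamts2 (0.941), Cav2 (0.919) and Emp1 (0.90), and Sox9 most like Grpel2 (0.929), Jmy (0.909) and Ppp2r2d (0.902). Epcam was most like Dhrs11 (0.916), Fxr1 (0.884) and Pdgfd (0.883), and Cd24a most like Pigu (0.936), Dynll1 (0.921) and Cdipt (0.92). These r values are the highest from a search of 12233 genes over only 10 mice. How high an r such a search gives for unrelated genes was not tested, so no link between the genes is drawn. The values of a mouse also share 1 library and its depth.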

How the data were processed

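Livers of 5 WT and 5 Thrb hep-/- mice were sequenced as stranded mRNA libraries, 1 for each mouse, and groups follow the labelled genotype. Reads were mapped by the authors to mm10 (HISAT2 2.2.1) and counted on Ensembl exons with HTSeq 0.9.1 in union mode, without strand and without multi-mapped or ambiguous reads. The deposited values are raw counts per gene. A separate table of the authors' edgeR comparison (edgeR 3.36.0; fold changes and p-values) was not used.

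The counts were tested in edgeR 4.0.16 (R 4.3.3) after the study's settings: a minimum of 1 CPM in 5 or more libraries, TMM, the robust quasi-likelihood F-test and Benjamini-Hochberg adjustment over all tested genes at 0.15. Markers under that filter were read from the same fit with at least 0.1 CPM in 5 libraries. Single values were compared by exact two-sided permutation over the 252 splits of 10 mice, levels by exact sign flips, and correlations by 1e+05 permutations within genotype. Log2 values used a prior count of 2. The edgeR fit was tested on simulated counts. The permutation test of Pearson r was tried on simulated normal values without groups, all permuted freely, so its form within genotype was not tested. Exon lengths and coordinates come from GENCODE on GRCm38, another release than the authors' annotation, and promoter windows from RefSeq on GRCm38.p6.

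The text names all 8 markers, from each related list the genes past the threshold (at most 4), for each tested marker the 3 genes most like it, and Thrb; further members of the lists are given as examples, among them those called only under an alternative, which were named after their values were seen. The values of 1 list member are not reported here singly. The members and lists were chosen with earlier results of these data known. The labels do not say that replicate numbers were shared between genotypes by litter or batch. DESeq2 1.42.0, limma 3.58.1 (voom), RLE and upper-quartile normalization, other filters, no robust settings, the likelihood ratio test, the replicate number as a block and leaving out each mouse were the alternatives; for markers under the study's filter they were run on genes with at least 0.1 CPM in 5 libraries.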

Additional observations from a re-analysis of the deposited data

Results flagged for a closer look

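In groups of 5 mice, a value was marked where its gap to the nearest other mouse exceeded 0.71 of the group's range (Dixon's critical value). Of 36 groups checked, 5 were marked. Chance gives about 1.8 for groups chosen beforehand. Krt23, Dlk1 and the called genes were not chosen so, and the counts cannot be compared. Cldn7 was at 0.695 normalized CPM in Thrb hep-/- mouse 4 and at 0.240 to 0.354 in the other mice of that group. Cftr was at 0.195 in WT mouse 4 and at 0.0374 to 0.0757 in the other WT mice, which is a difference of 5 counts against 1 or 2. Krt23 was at 0.035 in WT mouse 2, from 1 count, and at 0.189 to 0.25 in the other WT mice. Dlk1, an imprinted gene of fetal liver, was at 5.42 in Thrb hep-/- mouse 1 and at 0 to 0.265 in the other mice of that group. The total count of Thrb hep-/- mouse 2 was 27779196, below the 28441288 to 28590704 of its group. Krt23 and Dlk1 were named after their values were seen.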

How the results depend on the processing

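Under all 20 alternatives, 0 of the markers were called. Sox9 (log2 fold change -0.62 to -0.35), Spp1 (-0.53 to -0.29) and Cd24a (-0.67 to -0.28) stayed below 0 and above the threshold (adjusted p 0.19 to 0.77), and 5 to 6 of 7 neighbouring levels differed. The sign was not stable for 3 markers near 0. Epcam was at 0.0011 with DESeq2, 0.0017 with RLE normalization, 0.055 with limma-voom, 0.035 with the replicate block, and -0.12 to 0.27 over mice left out. Krt19 was at -0.21 to 0.12 over mice left out. Cldn7 stayed below 0, at -0.61 to -0.058 over mice left out. Krt7 was at -0.051 with limma-voom, -0.00066 with the replicate block and -0.081 to 0.12 over mice left out. The 499 genes called became 885 with DESeq2, 880 with limma-voom and 227 to 673 over mice left out, lowest without Thrb hep-/- mouse 3 (251 without WT mouse 2, 284 without WT mouse 5). The 6 related genes, beside 499 of all 12234 tested (4.08%), became 11 with DESeq2, beside 885 over all genes. They became 10 with 0.1 CPM in 5 libraries, beside 621 of 17209 (3.61%), and 10 with the likelihood ratio test, beside 683. Over mice left out they were 4 to 11, highest without WT mouse 1, beside 508 over all genes. The cause was not tested. Cdh1, Notch1 and Acta2 kept their calls under all 20 alternatives. Same-numbered mice of the 2 genotypes did not deviate together (correlations -0.20 to 0.0091, and 0 of 10 mice correlated best with its own number). Weak pairing by litter or batch could give the same values, so this does not settle whether the numbers pair the mice. With the replicate block 348 genes and 4 related genes were called; Aqp1 (adjusted p = 0.24, edgeR) and Des (adjusted p = 0.16, edgeR) were lost. S100a8 was also lost without a filter (adjusted p = 0.29, edgeR) and with 0.1 CPM in 5 libraries (adjusted p = 0.17, edgeR). Depth limits Cftr, at 1 to 5 counts, and Krt19, Krt7 and Cldn7, at fewer than 30 counts per library.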

Other observations

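Under the lower filter of 0.1 CPM in 5 libraries, further genes of the cell type lists were called. S100a9, the partner of S100a8 in neutrophils, had a log2 fold change of -2.52 (adjusted p = 0.14, edgeR), with 0.860 to 5.98 normalized CPM in WT and 0.132 to 0.973 in Thrb hep-/- mice. Slc4a1, the anion exchanger of red cells, had a log2 fold change of -2.80 (adjusted p = 0.13, edgeR) and was at 0 in WT mouse 4. Cela2a, an elastase of exocrine pancreas, was at 0.703 to 1.54 normalized CPM in WT and 0.0993 to 0.389 in Thrb hep-/- mice, and its log2 fold change was -1.87 (adjusted p = 0.017, edgeR). Of the 7 exocrine pancreas genes, only Cela2a passed the lower filter.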
